A study of Mus musculus with 4 samples.

Results

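The 45 genes described here encode the machinery that antibody-producing cells use to move new proteins into the endoplasmic reticulum (ER), fold them, attach sugars and degrade those that misfold. They were taken from a written list of secretory and ER folding genes, and all 45 were found once by symbol among the 31053 genes of the count matrices. An antibody chain enters the ER through the Sec61 channel, loses its signal peptide, receives N-linked sugars and is held by chaperones such as BiP (gene Hspa5) until its disulfide bonds are made. When unfolded chains accumulate, sensors in the ER membrane switch on chaperone genes, a program called the unfolded protein response. In the B lineage this machinery expands when a cell becomes a plasma cell, which secretes antibody.

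One sequence that the unfolded protein response acts through is the ER stress response element (ERSE), known to be bound by the factor ATF6 together with NF-Y. RefSeq promoters (GRCm38.p6, 250 bases before to 50 after each start site) were found for 36 of the 45 genes, as 44 windows. The ERSE, written as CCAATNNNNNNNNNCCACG and searched on both strands, lay in 8 of these 44 windows (18.2%), against 39 of all 32851 windows (0.119%). The 8 genes were Hspa5, Hsp90b1, Calr, Canx, Pdia6, Dnajc3, Creld2 and Derl3. The shorter ERSE-II (ATTGGNCCACG), which shares its last 5 letters with the ERSE, lay in 3 of the 44 windows (Herpud1, Krtcap2 and Dnajb11; 6.82%), against 0.0365% of all windows. A match is a description of letters and does not show that a factor binds. The part of these matches in the expression results below was not tested. The stretches of 5 ERSE genes are printed because these genes are named there. Hspa5 and Derl3 passed a test, and Hsp90b1 holds 2 matches. Creld2 lies among the genes of largest SFB difference in plasma-like cells, and Canx differed least between clusters 6 and 0. The printed stretches lie at chr2:34772010-34772058 (plus strand) for Hspa5, chr10:75893227-75893275 (plus) for Derl3, chr10:86705518-86705671 (minus) for Hsp90b1, chr15:88819505-88819553 (plus) for Creld2 and chr11:50325785-50325833 (minus) for Canx, all upstream of the RefSeq start site. Capitals mark the outer 5 letters at each end of a match, on either strand.
Hspa5: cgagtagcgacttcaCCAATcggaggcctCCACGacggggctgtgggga
Derl3: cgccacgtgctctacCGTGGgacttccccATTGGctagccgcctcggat
Hsp90b1: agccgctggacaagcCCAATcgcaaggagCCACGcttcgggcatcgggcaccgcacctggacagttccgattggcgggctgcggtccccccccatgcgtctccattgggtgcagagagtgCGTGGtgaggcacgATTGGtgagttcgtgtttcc
Creld2: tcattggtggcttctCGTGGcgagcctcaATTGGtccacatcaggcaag
Canx: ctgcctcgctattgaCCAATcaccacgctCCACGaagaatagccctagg

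The study measured RNA in single immune (CD45+) cells from Peyer's patches, which are lymphoid organs in the gut wall. The donors were female wild-type Taconic mice that lacked or carried segmented filamentous bacteria (SFB), a gut commensal. Each group, SFB(-) and SFB(+), has 2 libraries made with the 10x 3' kit, and patches of 5 mice were pooled per group. The labels do not say whether the 2 libraries of a group came from separate pools, so p-values measure only the spread between libraries. The authors' table assigns 22569 B-lineage cells to 7 clusters, numbered 0 to 6. Median UMIs (unique molecule counts) per table cell were 1267 and 1280 in the replicate 1 libraries of SFB(-) and SFB(+), and 3252 and 5864 in those of replicate 2. The most genes detected in any table cell were 2980 and 2993 in the replicate 1 libraries of SFB(-) and SFB(+). In those of replicate 2 they were 3999 and 5991, so this maximum differed between the groups there. A fit on cells with under 3000 genes is given as an alternative. The replicate 1 libraries shared 30 cell barcodes and the replicate 2 libraries 40.

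All 45 genes had a higher mean level in cluster 6, the plasma-like cells, than in cluster 0, the cluster with most cells. Cluster 6 held 6 and 30 cells in SFB(-) replicates 1 and 2, and 24 and 68 cells in SFB(+) replicates 1 and 2. All 8 plasma cell markers were detected there in every library (Jchain, Xbp1, Prdm1, Irf4, Sdc1, Tnfrsf17, Slamf7 and Cd28), while the 8 T cell markers summed to between 0 and 38.1 CPM (UMIs scaled to the same total in each library). The 8 myeloid markers summed to 1272, 295, 477 and 385 CPM in cluster 6 of SFB(-) 1 and 2 and SFB(+) 1 and 2, and to 223, 178, 228 and 167 in cluster 0. Nearly all of the cluster 6 sum was Ly6c2 and Cst3, while Lyz2, Csf1r, C1qa and S100a8 were at 0 in all 4 libraries, and the part of these markers in the results was not tested. The clusters were made from these cells' genes, so the levels by cluster are a description without a test. Antibody genes took 63.5% and 30.6% of the UMIs of cluster 6 in SFB(-) replicates 1 and 2, and 65.0% and 49.3% in SFB(+). Levels by cluster are therefore given as CPM of the UMIs without antibody genes. The ratio of mean levels, cluster 6 over cluster 0, had a median of 6.64 over the 45 genes and exceeded 2 in 44 of them. Over the 2528 genes tested in cluster 6, antibody genes left out, the median ratio was 1.15, and 22.9% exceeded 2.

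**Figure D1:**
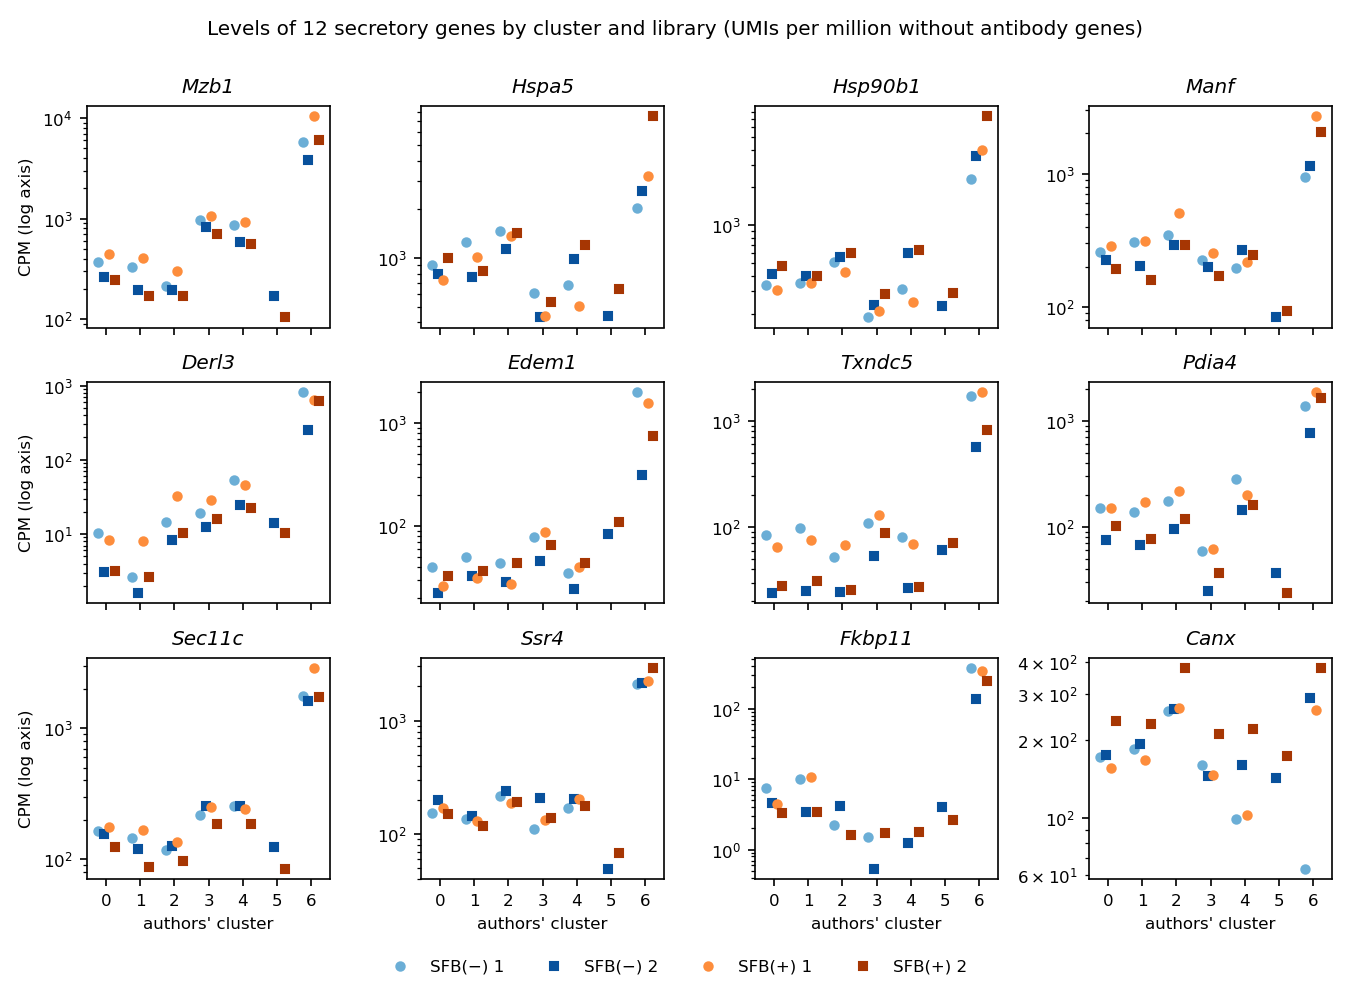
Levels of 12 of the 45 genes in the authors' clusters (x axis), in CPM without antibody genes (log axis, a scale of its own in each panel); each point is 1 library with at least 5 cells of the cluster, and values of 0 are not drawn. Cluster 6 stands above the other clusters for 11 of the 12 genes, but not for Canx, whose SFB(-) 1 value is lowest.

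The genes whose level differed most between clusters 6 and 0 act in degradation and isomerisation. Derl3, a derlin that helps pull misfolded proteins out of the ER, had the largest ratio (93.4), with a mean of 582 ± 238 CPM without antibody genes in cluster 6 and 6.24 ± 3.69 in cluster 0 (SD, n = 4 libraries). Fkbp11, a prolyl isomerase, had a ratio of 55.8 (276 ± 109 against 4.94 ± 1.77). The next ratios were those of Edem1 (38.3) and Edem2 (22.6), both of a family that marks misfolded glycoproteins for degradation, and of Txndc5 (24.8), a disulfide isomerase. By library, the Derl3 ratio was 79.8 and 83.1 in SFB(-) and 75.2 and 195 in SFB(+), and the Fkbp11 ratio was 50.8 and 30.0 in SFB(-) and 76.5 and 74.5 in SFB(+). Both genes were far above their cluster 0 level in each library. In T-cell-marker barcodes outside the table, which should lack plasma cell products, Derl3 was at 0, 3.50, 0 and 0.442 CPM in SFB(-) 1 and 2 and SFB(+) 1 and 2, where a count of 0 allows up to 7.68 CPM in SFB(-) 1 and 7.90 in SFB(+) 1. Their median depths were 1584, 3488, 1425 and 6485 UMIs, and those of cluster 0 were 1209, 2962, 1212 and 5249. Derl3 in cluster 0 (10.3, 3.04, 8.40 and 3.18 CPM) was below this background in SFB(-) 2, above it in SFB(+) 2, and close to the limit that a count of 0 allows in SFB(-) 1 and SFB(+) 1.

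At the other end, the calnexin gene Canx, a lectin chaperone of the ER membrane, had a ratio of 1.34, the smallest of the 45. Canx stood at 0.368 times its cluster 0 level in SFB(-) 1, where a single UMI was counted in 6 cells, and at 1.65, 1.66 and 1.61 times in SFB(-) 2 and SFB(+) 1 and 2, the smallest ratio of the 45 genes in each of these 3 libraries. Selenok, a selenoprotein of the degradation machinery, had a ratio of 2.51, Calr (calreticulin, the soluble partner of calnexin) 3.16, Tram1 (a helper of the Sec61 channel) 3.26 and Ssr1 (a subunit of the translocon-associated protein complex) 3.33. Both ends of this order hold ERSE genes: Derl3 and Canx each have a match, and the 8 ERSE genes had a median ratio of 7.61 (1.34 to 93.4) beside 6.09 (2.51 to 55.8) for the 28 other genes with a promoter.

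Chaperones and their helpers (10 genes) had a median ratio of 7.77. Mzb1, a B cell chaperone that binds BiP and antibody chains, reached 6548 ± 2811 CPM without antibody genes in cluster 6 against 330 ± 93.4 in cluster 0. Hspa5, the BiP chaperone that holds unfolded antibody heavy chains, reached 3850 ± 2518 against 856 ± 115. Hsp90b1 (the ER form of HSP90) reached 4316 ± 2163 against 383 ± 74.9, and Manf (a secreted BiP cofactor) 1714 ± 821 against 240 ± 40.1. The large SDs of Hspa5 and Hsp90b1 in cluster 6 come with values that differ between the libraries in both groups, as given below.

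The 8 disulfide and prolyl isomerases had a median ratio of 9.08, including Pdia4 (11.9) and Pdia6 (6.82), and the 7 degradation genes one of 10.2, including Herpud1 (10.2), a scaffold of the degradation complex. The 11 translocon and signal peptidase genes had a median ratio of 5.99. Ssr4, another translocon-associated subunit, stood at 13.9 times its cluster 0 level and the signal peptidase gene Sec11c at 13.0, whereas the channel genes Sec61b, Sec61a1 and Sec61g stood at 6.64, 4.45 and 3.92 times. Spcs2, a second signal peptidase gene, had a ratio of 5.99. The 5 oligosaccharyltransferase genes, which attach sugars, lay between 3.77 (Ostc) and 8.93 (Ddost), and the 4 lectin chaperones and cargo receptors between 1.34 (Canx) and 21.0 (Lman1, which ferries glycoproteins to the Golgi). The ratios of means thus differed within complexes, a description without a test. By library, Sec61b, Sec61a1 and Sec61g were close in SFB(-) 1 (4.90, 4.72 and 4.65). They lay further apart in SFB(-) 2 (6.58, 4.23 and 3.47), SFB(+) 1 (6.25, 3.99 and 3.56) and SFB(+) 2 (8.30, 4.87 and 4.30).

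Among clusters 0 to 4 the genes split by where their mean level was highest. Cluster 2 was highest for 22 of the 45 genes, cluster 3 for 13, clusters 0 and 4 for 4 each and cluster 1 for 2. The same count was not made over all genes, so it cannot show whether this split is particular to the 45. The 22 genes of cluster 2 included the chaperones Hspa5, Hsp90b1, Manf and Creld2 and the isomerases Pdia3 and Pdia6. Cluster 3 holds the germinal-centre-like cells, in which 8 germinal-centre markers summed to 2228 to 3118 CPM by library. It was highest for Mzb1, Herpud1, Txndc5, Sec61b, Sec61g, Ssr1, Ssr2 and Ssr3, among others. Of the same complexes, Sec61a1 was highest in cluster 0 and lowest in cluster 3, and Ssr4 was highest in cluster 2. Hspa5 averaged 1353 CPM without antibody genes in cluster 2 and 501 in cluster 3, while Mzb1 averaged 221 in cluster 2 and 892 in cluster 3. The 4 libraries did not overlap between these clusters: Hspa5 was 1467, 1137, 1372 and 1436 in cluster 2 and 606, 429, 437 and 531 in cluster 3 (SFB(-) 1 and 2, SFB(+) 1 and 2). Mzb1 ran the other way, with 214, 198, 300 and 171 in cluster 2 and 971, 831, 1060 and 704 in cluster 3.

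Together the 45 genes took a larger part of the RNA in plasma-like cells. Without antibody genes, they were 4.41% and 3.31% of UMIs in cluster 6 of SFB(-) 1 and 2, and 6.24% and 5.53% in SFB(+) 1 and 2 (exact 95% binomial intervals 4.10 to 4.74, 3.23 to 3.38, 6.05 to 6.43 and 5.48 to 5.58, covering counting error only). Both SFB(+) libraries were above both SFB(-) libraries. In clusters 0 to 5 the same share was 0.827% and 0.588% in SFB(-) and 0.784% and 0.599% in SFB(+), and the replicate 1 libraries were the higher ones in each group. In T-cell-marker barcodes the share was 0.719%, 0.487%, 0.643% and 0.497%. With antibody UMIs kept in the total, the cluster 6 shares were 1.61%, 2.29%, 2.19% and 2.80%, and the groups overlapped. No test was made on a sum over listed genes.

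Single plasma-like cells varied more within a library than the libraries did among themselves. The median cell gave the 45 genes 4.50% of its UMIs without antibody genes in SFB(-) 1, 3.40% in SFB(-) 2, 5.84% in SFB(+) 1 and 5.00% in SFB(+) 2, while single cells ranged from 0.793% to 19.6%. Cells were also grouped by the antibody constant gene with most UMIs. IgA cells (Igha) had medians of 6.31% (2 cells), 4.23% (9 cells), 7.54% (11 cells) and 5.13% (19 cells) in SFB(-) 1 and 2 and SFB(+) 1 and 2, and IgM cells (Ighm) 3.91% (4), 3.68% (11), 5.09% (2) and 4.06% (13). The Igha median was above the Ighm median in each of the 4 libraries. IgG2b cells (Ighg2b) had medians of 4.34% (2), 5.58% (10) and 4.46% (30) in the 3 libraries that held them, and the 7 IgG1 cells (Ighg1) of SFB(-) 2 had 2.82%. The makeup of cluster 6 by isotype thus differed between the groups. So did the antibody share of single cells, with medians of 38.02% and 26.66% of UMIs in SFB(-) 1 and 2. In SFB(+) 1 and 2 these medians were 61.34% and 46.42%. Each library also held cells of low antibody share, the lowest being 2.52%, 1.71%, 7.83% and 5.26% in the same order. The part of isotype and of antibody share in the SFB differences of cluster 6 was not tested.

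**Figure D2:**
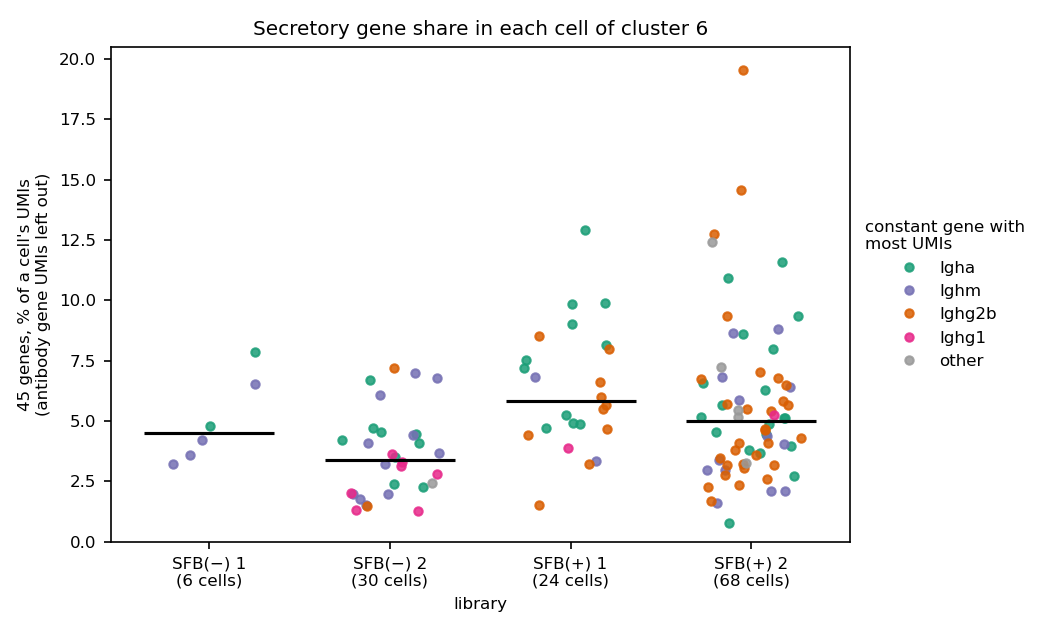
Each point is 1 cell of cluster 6, the y axis is the percentage of its UMIs, antibody genes left out, that belong to the 45 genes, and colour is the antibody constant gene with most UMIs; black lines are medians of 6, 30, 24 and 68 cells. Medians lie between 3.40% and 5.84%, within the wide spread of the cells.

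A small number of plasma-like cells held a large part of some genes' UMIs. Cluster 6 was 0.148% and 0.388% of the table's cells in SFB(-) 1 and 2, and 0.704% and 0.921% in SFB(+) 1 and 2. It held 14.6%, 20.6%, 27.9% and 47.9% of the Derl3 UMIs of these libraries, and 13.3%, 22.6%, 45.7% and 56.7% of the Fkbp11 UMIs. For Mzb1 the shares were 3.36%, 6.83%, 17.1% and 18.4%, and for Canx 0.0885%, 1.10%, 1.64% and 2.08%. The median over the 45 genes was 1.19%, 3.35%, 7.35% and 9.60%, so in each library the median gene was above the share of cells. The share of all UMIs without antibody genes that lay in cluster 6 was 0.254%, 0.692%, 1.07% and 1.34%, also below the median gene in each library.

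**Figure D3:**
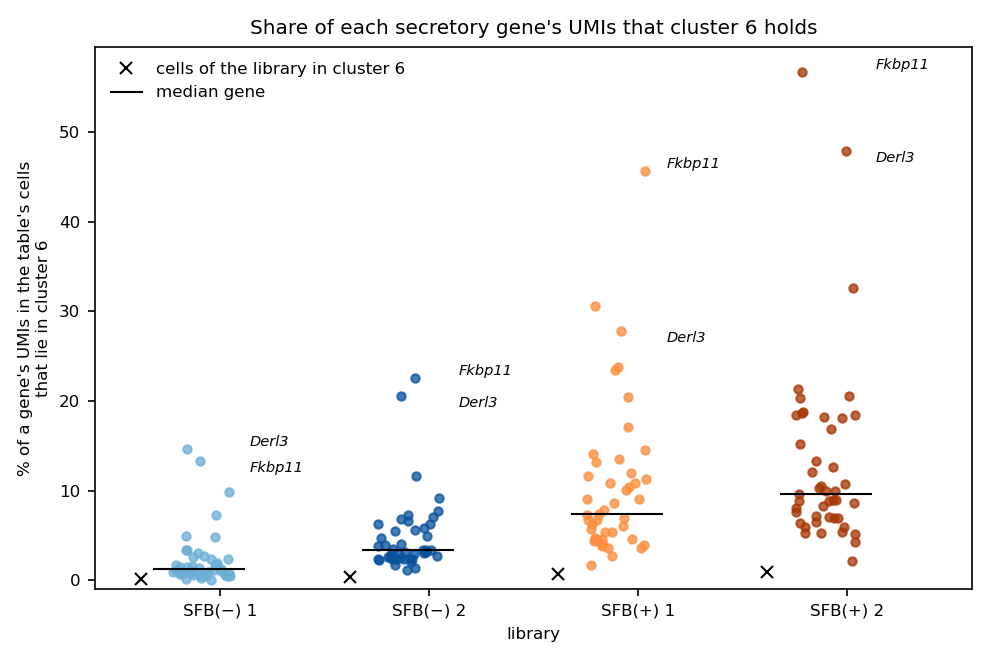
For each of the 45 genes (points), the percentage of its UMIs in the table's cells that lies in cluster 6, by library (x axis); bars are medians over genes and crosses the percentage of cells in cluster 6. The medians run from 1.19% to 9.60%, and Derl3 and Fkbp11 are the 2 uppermost genes in SFB(-) 1 and 2 and in SFB(+) 2.

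In all table cells together, Derl3 rose with SFB and was the single one of the 45 genes called higher. TMM-scaled levels (CPM scaled by edgeR's trimmed mean of M-values) of Derl3 were 15.3 and 8.68 in SFB(-) 1 and 2, and 25.4 and 14.1 in SFB(+) 1 and 2. SFB(+) was above SFB(-) within each replicate number (log2 0.72 and 0.69), while SFB(+) 2 lay below SFB(-) 1. The log2 difference was 0.71 ± 0.22 (SE; edgeR quasi-likelihood test with the replicate number as a block, adjusted p = 0.0406, higher in 2 of 2 pairs). One gene of 45 compares with 0.929% of all genes called higher, and 0 of 45 with 2.68% called lower (edgeR; 3 of the 45 had an unadjusted p under 0.05 in either direction). Derl3 (chromosome 10, 75893413 to 75895941, plus strand, GENCODE M21 on GRCm38, the files' mm10) lost this call by DESeq2 (0 of 45 called), without the block, with other size factors, with no filter on low counts, in cells with under 3000 genes and without any 1 of the 4 libraries. In clusters 0 to 5, without the plasma-like cells, its log2 difference was 0.28 ± 0.23 (edgeR adjusted p = 0.802), and in cluster 6 alone 0.63 ± 0.46 (adjusted p = 0.968). Cluster 6 also held the larger share of cells in both SFB(+) libraries, and its part in the Derl3 difference was not tested.

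Within the plasma-like cells, 43 of the 45 genes had a positive SFB difference and none passed the test. The median antibody share per cell differed between the groups there, as given above. The antibody share of the summed UMIs, which the fit uses, overlapped (63.5% and 30.6% in SFB(-) 1 and 2, 65.0% and 49.3% in SFB(+) 1 and 2). All 45 passed the filter on low counts there. Their median log2 difference was 0.52 beside 0.07 over the 2547 genes tested, of which 55.6% were positive. Single libraries moved this contrast: without SFB(-) 1 the medians were 0.94 and -0.08, without SFB(-) 2 0.70 and 0.55 (65.7% of all genes positive), without SFB(+) 1 0.47 and 0.09, and without SFB(+) 2 0.80 and -0.18. Higher in SFB(+) within both replicate numbers were 32 of 45, beside 32.1% of all genes tested, and lower within both was 1 of 45, beside 18.8%. By edgeR, 0 of 45 were called in either direction (5 at an unadjusted p under 0.05), beside 0.314% of all genes called higher and 0.236% lower. DESeq2 also called 0 (5 at an unadjusted p under 0.05). The number at an unadjusted p under 0.05 depended on the setting: it was 18 with RLE size factors in edgeR, 21 with antibody genes left out of the totals, and 0 without the block or without the cell of most member UMIs in each library, each with 0 calls. Among cells with under 3000 genes, edgeR gave 1 of 45 at an unadjusted p under 0.05 and 0 calls. The median log2 difference there was 0.34 beside 0.07 over all genes, and 37 of 45 were positive. That fit kept 20 of the 30 cells of SFB(-) 2 and 21 of the 68 cells of SFB(+) 2. The 6 cells of SFB(-) 1 limit all these fits: its 45 genes rested on 697 UMIs, and 29.4% of these came from 1 cell.

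**Figure D4:**
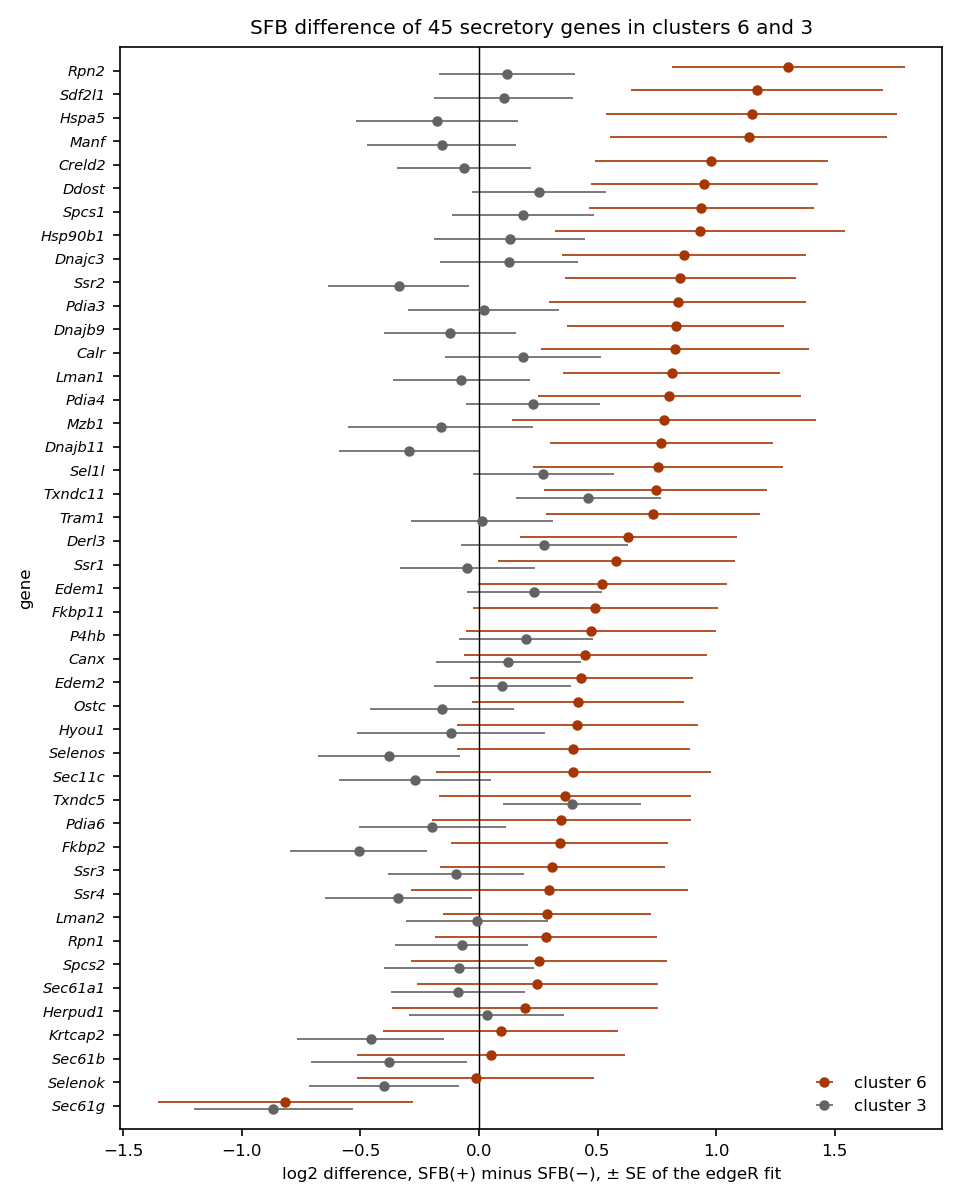
Log2 difference, SFB(+) minus SFB(-), of each of the 45 genes in cluster 6 (red-brown) and in cluster 3 (grey), with the standard error of the edgeR fit; Fkbp11 was too low to be tested in cluster 3. In cluster 6, 43 of 45 points lie to the right of 0 with a median of 0.52, and in cluster 3, 19 of 44 do with a median of -0.07.

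Among the roles, chaperones had the largest median log2 difference in cluster 6 (0.90), and 10 of 10 were higher within both replicate numbers. Hspa5 stood at 857 and 1529 TMM-scaled CPM in SFB(-) 1 and 2, and at 1705 and 3726 in SFB(+). Manf stood at 402 and 666 in SFB(-) and 1438 and 1017 in SFB(+), Hsp90b1 at 991 and 2095 against 2101 and 3645, and Mzb1 at 2465 and 2251 against 5579 and 2971. For each of these 4 genes both SFB(+) libraries were above both SFB(-) libraries, though 1 pair of Hsp90b1 values, 2095 and 2101, nearly met. Of the 45 genes, 19 were separated in this way in cluster 6. No such count was made over all genes tested, so non-overlap here and below only describes the values. The log2 differences were 1.15 ± 0.61 for Hspa5, 1.14 ± 0.58 for Manf, 0.93 ± 0.61 for Hsp90b1 and 0.78 ± 0.64 for Mzb1, with edgeR adjusted p-values that missed the limit of 0.05. Sdf2l1, a cofactor of BiP, had 321 and 243 against 913 and 469 CPM, and Creld2, a secreted ER stress gene, 348 and 164 against 439 and 432. Among the 8 ERSE genes the median log2 difference in cluster 6 was 0.84 (0.35 to 1.15), and among the 28 others with a promoter 0.45 (-0.82 to 1.30).

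In the other roles the medians in cluster 6 were smaller. All 8 isomerases (median log2 0.48) and all 4 lectin chaperones and cargo receptors (0.63) were higher within both replicate numbers, as were 6 of the 11 translocon and signal peptidase genes (0.31), 2 of the 5 oligosaccharyltransferase genes (0.42) and 2 of the 7 degradation genes (0.43). Rpn2, an oligosaccharyltransferase subunit, had the lowest p of the 45: 107 and 82.0 TMM-scaled CPM in SFB(-) against 379 and 176 in SFB(+), a log2 difference of 1.30 ± 0.49 (edgeR adjusted p = 0.414). Pdia4 stood at 589 and 452 against 999 and 806 CPM, Calr at 643 and 561 against 1042 and 1069, and Pdia6 at 723 and 502 against 1007 and 594. For Pdia4 and Calr the groups did not overlap between the groups, and for Pdia6 they did. The values of Txndc5 (723 and 333 against 999 and 404), Edem1 (857 and 185 against 835 and 372) and Edem2 (536 and 145 against 577 and 233) followed the replicate number more than the group. Ssr4 had 884 and 1262 against 1188 and 1436 CPM, Sec11c 750 and 944 against 1541 and 855, Spcs2 723 and 500 against 947 and 551, and Herpud1 777 and 725 against 706 and 1000.4, all with overlapping groups. Derl3 (348 and 148 against 336 and 306), Fkbp11 (161 and 79.3 against 181 and 122), Sec61b (268 and 936 against 456 and 712) and Canx (26.8 and 169 against 138 and 186) overlapped as well. Tram1 (134 and 148 against 491 and 172) did not, and Ssr1 (107 and 58.2 against 181 and 83.5) did. Hyou1, a large ER chaperone, had 0 UMIs in SFB(-) 1 and stood at 76.7, 77.5 and 86.6 CPM in SFB(-) 2 and SFB(+) 1 and 2. The remaining genes (Pdia3, P4hb, Fkbp2, Txndc11, Dnajb9, Dnajb11, Dnajc3, Sec61a1, Spcs1, Ssr2, Ssr3, Selenos, Ostc, Ddost, Rpn1, Krtcap2, Lman1, Lman2 and Sel1l) all had positive differences and did not pass. The 2 genes with a negative difference were Sec61g (-0.82 ± 0.54; 563 and 817 against 482 and 341 CPM) and Selenok (-0.01; 482 and 391 against 499 and 375 CPM).

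Whether the SFB difference in plasma-like cells differed from that in germinal-centre-like cells was tested directly. In a joint fit of clusters 6 and 3, 3 of the 45 genes passed, all with a larger difference in cluster 6: Hspa5 (1.46 ± 0.29 on the log2 scale, adjusted p = 3.39e-04), Manf (1.42 ± 0.33, adjusted p = 0.00904) and Mzb1 (1.11 ± 0.26, adjusted p = 0.00982; edgeR interaction term). Of all 8046 genes tested, 0.373% passed, in either direction. In cluster 3 alone the log2 differences were -0.18 ± 0.34 for Hspa5, -0.16 ± 0.31 for Manf and -0.16 ± 0.39 for Mzb1. The cluster 3 levels of Hspa5 were 595 and 460 TMM-scaled CPM in SFB(-) and 442 and 479 in SFB(+), which overlap, unlike those of cluster 6. The interaction was positive for 44 of 45 genes, with a median of 0.73 beside 0.09 over all genes. The standard error of Hspa5 was 0.61 in cluster 6 alone and 0.29 in the joint fit, which uses 1 spread for both clusters. The 3 calls were all lost without the replicate block, without the cell of most member UMIs in each library, and among cells with under 3000 genes, while the direction of all 3 held under these and the other 5 alternatives. Fits with a library left out have 1 library in a group and are read by effect size only. They therefore do not show that the 3 calls hold without any given library. Without SFB(-) 2, the 6 cells of SFB(-) 1 were the only SFB(-) cells of cluster 6. The median interaction was then 1.39 over the 45 genes and 6.15 over all genes, of which 81.8% were positive. The positive values of that fit are therefore not particular to these genes. Between clusters 4 and 3, 0 of 44 genes passed by edgeR (2 at an unadjusted p under 0.05), beside 0.798% of all genes.

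Outside the plasma-like cells few of the 45 genes passed, and the one that did, Sec61g, was lower with SFB. Sec61g, the gamma subunit of the Sec61 channel, fell in cluster 4 by 1.04 ± 0.28 on the log2 scale (edgeR adjusted p = 0.0166) and in cluster 0 by 0.92 ± 0.28 (adjusted p = 0.0468). In cluster 4 it stood at 358 and 426 TMM-scaled CPM in SFB(-) 1 and 2, and at 272 and 146 in SFB(+) 1 and 2. In cluster 0 it stood at 294 and 427 against 265 and 136. The groups did not overlap in either cluster, but the difference was mostly in the second pair (log2 -0.40 and -1.54 within replicates 1 and 2 of cluster 4, -0.15 and -1.65 of cluster 0). The same order, SFB(-) 2 highest and SFB(+) 2 lowest, held in each of clusters 0, 1, 2, 3, 4 and 6. One gene of 44 or 45 compares with 1.25% of all genes called lower in cluster 4 and 1.92% in cluster 0, and 0 genes with 0.282% and 0.236% called higher (edgeR; 3 and 4 had an unadjusted p under 0.05). DESeq2 called 0 in both clusters. Sec61a1 and Sec61b, the other 2 channel subunits, did not pass in any class. Sec61a1 followed the replicate number, at 92.8 and 32.8 TMM-scaled CPM in SFB(-) 1 and 2 of cluster 4 and 79.5 and 34.8 in SFB(+) 1 and 2.

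**Figure D5:**
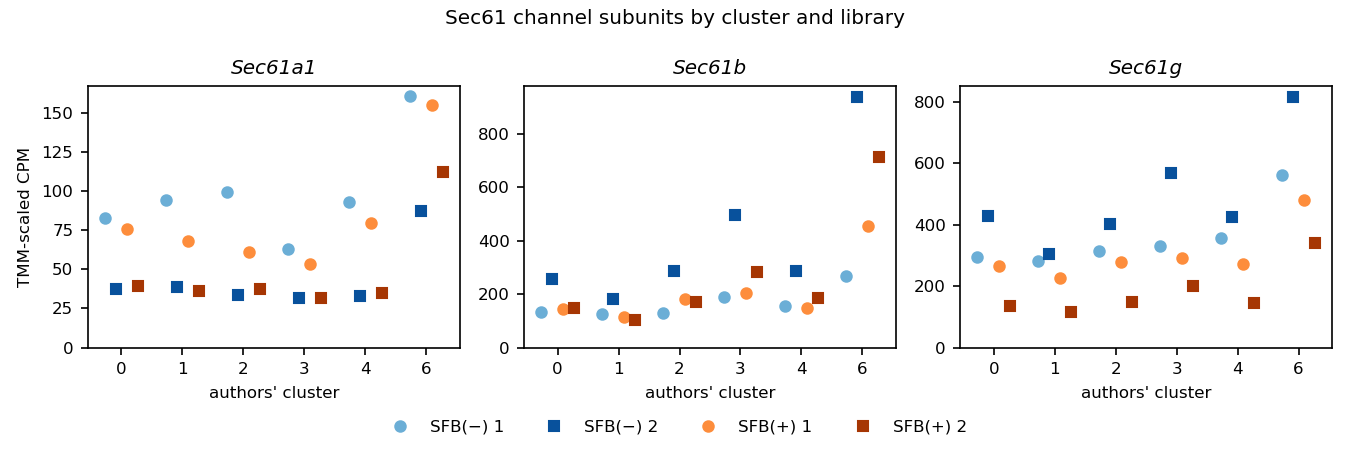
TMM-scaled CPM of the 3 Sec61 channel genes in clusters 0 to 4 and 6 (x axis), 1 point per library (circles replicate 1, squares replicate 2; blues SFB(-), orange and brown SFB(+)), each panel with its own linear axis. For Sec61g the SFB(+) 2 library is lowest and SFB(-) 2 highest in every cluster drawn, and Sec61a1 separates by replicate number in clusters 0 to 4.

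SFB differences in clusters 0 to 5 also varied with transcript length. In clusters 0 to 5, the median log2 difference was -0.88 over 80 genes whose longest coding transcript was under 500 bases, -0.27 over 560 genes of 500 to 1000 bases, -0.08 over 2258 genes of 1000 to 2000 bases, and 0.09 over 3698 genes of 4000 bases or more. Within replicates 1 and 2 the shortest class gave 0.0015 and -1.01, and the class of 1000 to 2000 bases 0.05 and 0.17. The longest coding transcript of Sec61g (chromosome 11, 16500530 to 16508484, minus strand) is 1862 bases in GENCODE M21, and its own TMM-scaled differences in clusters 0 to 5 were -0.25 and -1.54 within replicates 1 and 2. The longest annotated transcript need not be the one that these cells express, so the length class of Sec61g is uncertain. In cluster 6 the 45 genes had median differences of 0.40 (5 genes of 500 to 1000 bases), 0.41 (12 of 1000 to 2000), 0.77 (19 of 2000 to 4000) and 0.58 (9 longer), where all genes of those lengths had -0.24, 0.03, 0.08 and 0.14. The part of transcript length in these results was not tested.

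In the other classes 0 of the tested genes among the 45 passed by edgeR. These were clusters 0 to 5 together (45 tested, 5 at an unadjusted p under 0.05, beside 0.877% of all genes called higher and 2.67% lower), cluster 1 (45 tested, 6, beside 0.13% and 0.851%), cluster 2 (44 tested, 3, beside 0.258% and 0.886%) and cluster 3 (44 tested, 1, beside 0.375% and 0.972%). DESeq2 called 0 of them in each of these classes. Sec61g was among the lowest p-values there, with log2 differences of -0.90, -0.89, -0.83 and -0.87 and adjusted p-values of 0.0525, 0.127, 0.269 and 0.255. The median log2 difference of the 45 genes was -0.19 in clusters 0 to 5, -0.13 in clusters 1 and 2 and -0.07 in cluster 3. The sign of each turned when 1 of 2 libraries was left out: without SFB(-) 1 these medians were 0.23, 0.34, 0.15 and 0.16, and without SFB(+) 2 they were 0.23, 0.28, 0.26 and 0.19. Cluster 5 had 1 and 0 cells in the replicate 1 libraries and was not tested.

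Other genes of the pathway were read from 6 lists (unfolded protein response, translocon, N-glycosylation, folding, degradation and ER-to-Golgi transport), of which 119 genes were tested in all table cells. There 1 gene was higher and 3 were lower, shares near the 0.929% and 2.68% of all genes. The lower genes were Ost4 (log2 -0.88, adjusted p = 0.0179) and Tmem258 (-0.97, adjusted p = 0.00625), small subunits of the oligosaccharyltransferase, and Dpm3 (-0.93, adjusted p = 0.00522), a subunit of dolichol-phosphate mannose synthase. Tmem258 stood at 95.8 and 166 CPM without antibody genes in SFB(-) and 77.2 and 71.7 in SFB(+), with groups that did not overlap, and Dpm3 at 57.8 and 99.8 against 52.5 and 41.1. Ost4 stood at 108 and 167 against 72.9 and 96.8. The longest coding transcripts of Ost4, Tmem258 and Dpm3 are 1144, 606 and 827 bases, and these too need not be the ones expressed. Sec24d, a coat gene of ER-to-Golgi vesicles, was higher (log2 1.06, edgeR adjusted p = 0.0165; 1.45 and 5.57 against 3.83 and 13.8 CPM). In cluster 3, Sec24a, of the same coat family, rose by 1.12 on the log2 scale (adjusted p = 0.0235; 50.7 and 51.8 against 76.6 and 164 CPM), and Dpm3 fell by 1.20 (adjusted p = 0.00869). These were 1 higher and 1 lower of 118 tested, beside 0.375% and 0.972% of all genes. In cluster 6, 1 of 88 tested pathway genes passed, beside 0.314% of all genes called higher: Ern1, which encodes the unfolded protein response sensor IRE1, rose by 2.36 on the log2 scale (edgeR adjusted p = 0.0160). That call rested on SFB(+) 2, which held 281 Ern1 UMIs, where SFB(-) 1 and 2 held 0 and 13 and SFB(+) 1 held 1.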

How the data were processed

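The deposited matrices hold raw UMI counts per gene and barcode; per the submitters' processing notes Cell Ranger 5.0.1 and mm10 were used, whereas the file headers name 6.0.0 (replicate 1) and 7.0.0 (replicate 2). Cells and clusters came from the authors' deposited cell table; no doublet caller was run, and how the authors treated doublets has no description in the labels. Members and gene lists were chosen with earlier results of these data known. Sums of UMI counts for each class of a library were fitted over all genes with edgeR 4.0.16 (quasi-likelihood, robust, TMM, filterByExpr, Benjamini-Hochberg over the genes of a class, limit 0.05). The replicate number was a block because it marks the counting software version, tags and depth in the files, so it is not a pairing of animals. Each fit left 1 degree of freedom per gene, and the spread was pooled across genes. A class was tested where every library had at least 5 cells. SE is the log2 difference divided by the root of the F value. Antibody genes are 393 symbols, those of immunoglobulin genes and Jchain. T-cell-marker barcodes lay outside the table, with at least 2 UMIs of T cell receptor or CD3 genes, no UMI of B cell marker genes and under 10% mitochondrial UMIs. Genes named with values were those past the limit, the 15 with the highest mean CPM in cluster 6, the 5 largest and 5 smallest ratios, and pathway genes past the limit; others were named after their values were seen. The fitting code was tested on simulated data. Alternatives were DESeq2 1.42.0, other scaling and filters, the fit without the block, and leaving out libraries or cells.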

Additional observations from a re-analysis of the deposited data

Results flagged for a closer look

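The genes Hspa5, Manf and Mzb1 had SFB differences that differed between plasma-like cluster 6 and germinal-centre-like cluster 3 by a direct test (edgeR interaction term, log2 scale): 1.46 for Hspa5, 1.42 for Manf and 1.11 for Mzb1. Over the alternatives the values stayed positive, from 0.65 to 2.44 for Hspa5, 0.89 to 2.26 for Manf and 0.65 to 1.42 for Mzb1. All of these calls were lost without the replicate block, without the cell of most member UMIs in each library, and among cells with under 3000 genes. Fits with a library left out were read by effect size only and do not show that these calls hold. Without SFB(-) 2 the median over all genes was itself 6.15, so positive values in that fit are not particular to these genes.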

How the results depend on the processing

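Without the replicate block 0 of the 45 genes were called in any class or in the joint fit of clusters 6 and 3. The Derl3 call in all table cells went to 0 with RLE size factors, DESeq2, no filter on low counts, cells with under 3000 genes, and any library left out (0 to 0). The Sec61g call in cluster 0 went to 0 under those same settings (0 to 0 with a library left out). In cluster 4 it went to 0 with DESeq2, cells with under 3000 genes and any library left out (0 to 0). One gene lower appeared in clusters 0 to 5 without the top member cell of each library, and 1 in cluster 1 with no filter. For the interaction of clusters 6 and 3, the main count was 3. Alternatives chosen after seeing the data gave 5 calls without antibody genes, 0 among cells with under 3000 genes and 0 without the top cells. With a library left out, the member median ran from 0.44 to 1.39, beside all-gene medians from -0.28 to 6.15. The member share of cluster 6 without antibody UMIs was 3.86% in SFB(-) and 5.88% in SFB(+), as means of 2 libraries, beside 1.95% and 2.49% with them. Besides the member medians of clusters 0 to 5 given above, whose sign turned with a library left out, single-gene values that reversed, none of them called, included Derl3 in clusters 0 to 5 (-0.41 to 0.92 with a library left out, -0.41 without SFB(+) 1; -0.27 in cells with under 3000 genes), Derl3 in cluster 6 (-0.14 to 1.17, -0.14 without SFB(-) 2) and Selenok in cluster 6 (-0.17 to 0.21 with a library left out; 0.0078 without the block, 0.11 with no filter, 0.013 without antibody genes, 0.028 without the top cells); the causes were not tested. With RLE size factors, 36 genes were higher and 83 lower in cluster 4, beside 24 and 106. The 6 cells of cluster 6 in SFB(-) 1 limit every value of that cluster. Leave-one-out fits have no block and assume that the lone library varies like the others.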

Other observations

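Some barcodes with many antibody UMIs lay outside the authors' table. With over 20% antibody UMIs and under 10% mitochondrial UMIs, there were 1 and 0 such barcodes in SFB(-) 1 and 2, and 7 and 4 in SFB(+) 1 and 2. The 7 barcodes of SFB(+) 1 had a median of 118 genes detected and gave the 45 secretory genes 8.58% of their UMIs without antibody genes, and the 4 of SFB(+) 2 had a median of 5464 genes and 2.13%. The 1 barcode of SFB(-) 1 had 113 genes and 4.88%.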
